A study of Mus musculus with 27 samples.

Results

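The small leucine-rich proteoglycans (SLRPs) are secreted proteins of the extracellular matrix, and the genes described here are the 10 members Dcn, Bgn, Aspn, Lum, Fmod, Prelp, Kera, Omd, Ogn and Epyc. They were taken by name from a table of 23279 genes, whatever their values, and 9 of the 10 passed the filter on low values that 14439 genes passed (Epyc did not). RNA was measured in 27 mouse libraries, 3 in each of 9 groups. The ES–FLB and ES–HLB groups are limb bud-like tissues grown from mouse embryonic stem cells of 1 line, EB5 Hand2::GFP +/-, in which a green fluorescent reporter sits in 1 allele of Hand2, a gene of limb bud mesenchyme. Both were grown as aggregates with BMP4, Matrigel, the BMP inhibitor LDN193189 and Wnt, were given retinoic acid (ES–FLB) or a retinoic acid antagonist (ES–HLB), and were sorted for reporter fluorescence on day 9 from pooled aggregates. In the later part of the culture both were also kept in medium with hydrocortisone and methylcellulose. The other 7 groups came from Slc:ICR embryos, cut from 3 embryos each and not sorted. They are forelimb and hindlimb buds (FLBs and HLBs) of an early stage and of E10.5, and 3 further E10.5 tissues, of which BA is the branchial arch, Ca the heart and TB the tail bud. The labels give E10.0 for both early groups, and the study's figure legend gives an earlier stage for the forelimb and a later one for the hindlimb. Nothing in the labels names separate cultures or litters for the libraries of a group, so p-values measure the spread between these samples, which may be technical.

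SLRPs have a core of leucine-rich repeats that binds collagen and, in many members, carries sugar chains. Decorin and biglycan carry chondroitin or dermatan sulfate, lumican, fibromodulin and keratocan carry keratan sulfate, and the bound cores limit how thick collagen fibrils grow. Decorin, biglycan and asporin also bind growth factors of the TGF-β family. The family is best known from tendon, cornea, skin, cartilage and bone, and in a limb bud it marks connective tissue mesenchyme that comes before tendon and skeleton.

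Values are read counts scaled to a library total of 1000000 (CPM) as deposited, scaled between libraries. Depth was 5543747 to 8541934 reads in the libraries other than the early limb buds and 19642275 to 22142313 in the early limb buds, so that 3 reads, the level that a count of 0 allows, are 0.150 to 0.543 scaled CPM. These floors cover counting error only. Replicate 2 of the E10.5 HLBs lists 0 for nearly all genes of several chromosomes (5, 6, 7, 8, 9, X, Y and part of 4), Bgn among them, and was left out, which leaves 26 libraries. Hand2 was at 155 ± 13 CPM (SD, n = 3) in ES–FLB and 234 ± 12.0 in ES–HLB, against 89.7 to 149 in the means of the embryonic limb buds. Replicate 3 of the early FLBs and replicate 2 of the early HLBs stood apart from the rest of their groups. Periostin (Postn) was at 218 CPM in the first, against 123 and 91.3, and at 99.2 in the second, against 19.9 and 35.4. Tbx20, a heart and body wall mesoderm gene chosen after its values were seen, was at 13.5 against 5.83 and 5.06, and at 5.85 against 2.05 and 3.23. Results that rest on these libraries are given with and without them.

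Among the markers of other cells, the summed level of 7 endothelial genes was 26.9 to 47.5 CPM in the ES–LB libraries and 305 to 453 in the limb buds, and that of 6 erythroid genes 5.44 to 168 and 2343 to 6939. For 7 limb mesenchyme genes the ranges were 821 to 1077 CPM in ES–LBs, 952 to 1345 in limb buds, 916 to 1002 in BA, 320 to 385 in Ca and 171 to 205 in TB. The 10 tendon and connective fibroblast genes summed to 1349 to 1600 CPM in ES–LBs and 388 to 870 in limb buds, and Tnmd, the tendon marker tenomodulin, was at 0 in every library of both early groups and of the E10.5 HLBs. The 6 cartilage genes summed to 174 to 360 in ES–LBs and 271 to 620 in limb buds, with Acan and Matn1 at 0 in ES–FLB. The 7 cardiomyocyte genes reached 11472 to 13611 in Ca, and 4 notochord genes 155 to 172 in TB, and both were at most 17.7 in ES–LBs and limb buds. Surface ectoderm genes (8) summed to 110 to 231 in ES–LBs and 283 to 471 in limb buds, and macrophage genes (7) to 1.09 to 3.81 and 1.42 to 20.5. For 6 epicardial and endocardial genes the ranges were 88.2 to 233 and 95.9 to 176, for 5 neural genes 29.9 to 42.0 and 7.24 to 17.0, for 5 neural crest genes 8.93 to 15.2 and 12.1 to 23.5, and for 5 muscle precursor genes 0.907 to 2.82 and 6.43 to 44.5. The part of these other cells in the results was not tested, and in bulk libraries fewer cells of a type and less RNA per cell cannot be told apart.

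Lum, the gene of lumican, was the most abundant SLRP transcript of the ES–LBs per length of exon, and the ES–LBs held more SLRP RNA than any embryonic group. The summed level of the 10 genes was 94.7 ± 5.65 CPM per kb (SD, n = 3) in ES–FLB and 183 ± 9.49 in ES–HLB. In the embryo it was 35.5 ± 3.96 in Ca, 18.0 ± 1.75 in BA, 17.5 ± 1.30 in TB and 14.2 ± 2.77 in E10.5 FLBs, and it was 6.95 ± 0.322 (n = 2) in E10.5 HLBs. Early FLBs stood at 22.8 ± 6.05 and early HLBs at 12.8 ± 2.24, which became 15.1 ± 6.30 and 6.29 ± 2.62 without Omd, whose early values are in doubt as described below.

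The gene that led the family differed between tissues. Lum made up 72.7% ± 2.15 of the summed level per kb in ES–FLB and 74.5% ± 1.33 in ES–HLB. Bgn led in BA with 53.5% ± 1.87, in E10.5 HLBs with 53.4% ± 0.987 and in Ca with 44.0% ± 2.01. Fmod, the gene of fibromodulin, led in TB with 67.8% ± 6.12. In E10.5 FLBs Bgn (42.8% ± 9.86) and Lum (38.7% ± 7.36) were within their spread of each other by this measure. The shares depend on the length used, since the exons of Bgn span 6.10 kb and its longest transcript 2.67 kb. Per kb of the longest transcript Bgn stood at 13.5 CPM and Lum at 5.60 in E10.5 FLBs. By that length Lum still led in ES–FLB and ES–HLB (69.0 and 136, against 24.0 and 45.0 for Bgn) and Fmod in TB (12.6, against 8.74). Dcn reached its largest share in Ca, 22.5% ± 1.68.

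**Figure D1:**
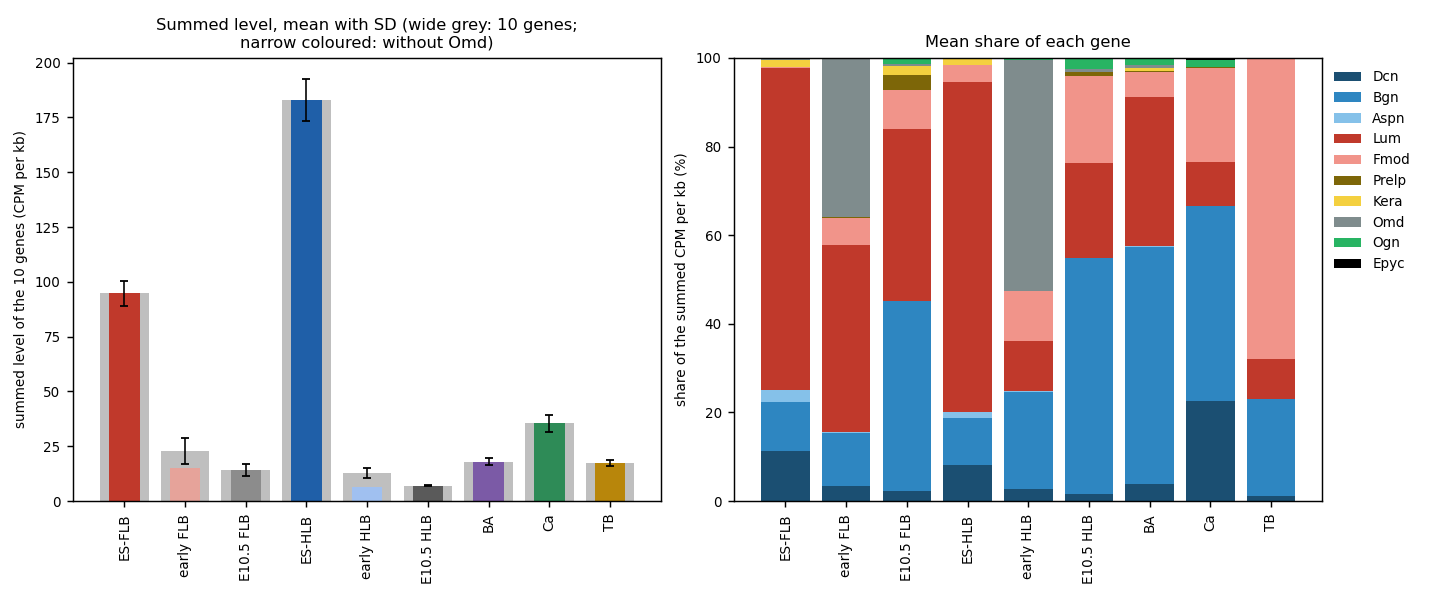
Summed SLRP level per kb of exon in each group (left, mean with SD over 3 libraries, 2 for E10.5 HLBs; wide grey bars for 10 genes, narrow coloured bars without Omd) and the mean share of each gene in percent (right). ES–HLB (183 CPM per kb) and ES–FLB (94.7) stand above all embryonic groups, Lum fills most of both, Bgn most of BA and E10.5 HLBs, and Fmod most of TB.

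**Figure D2:**
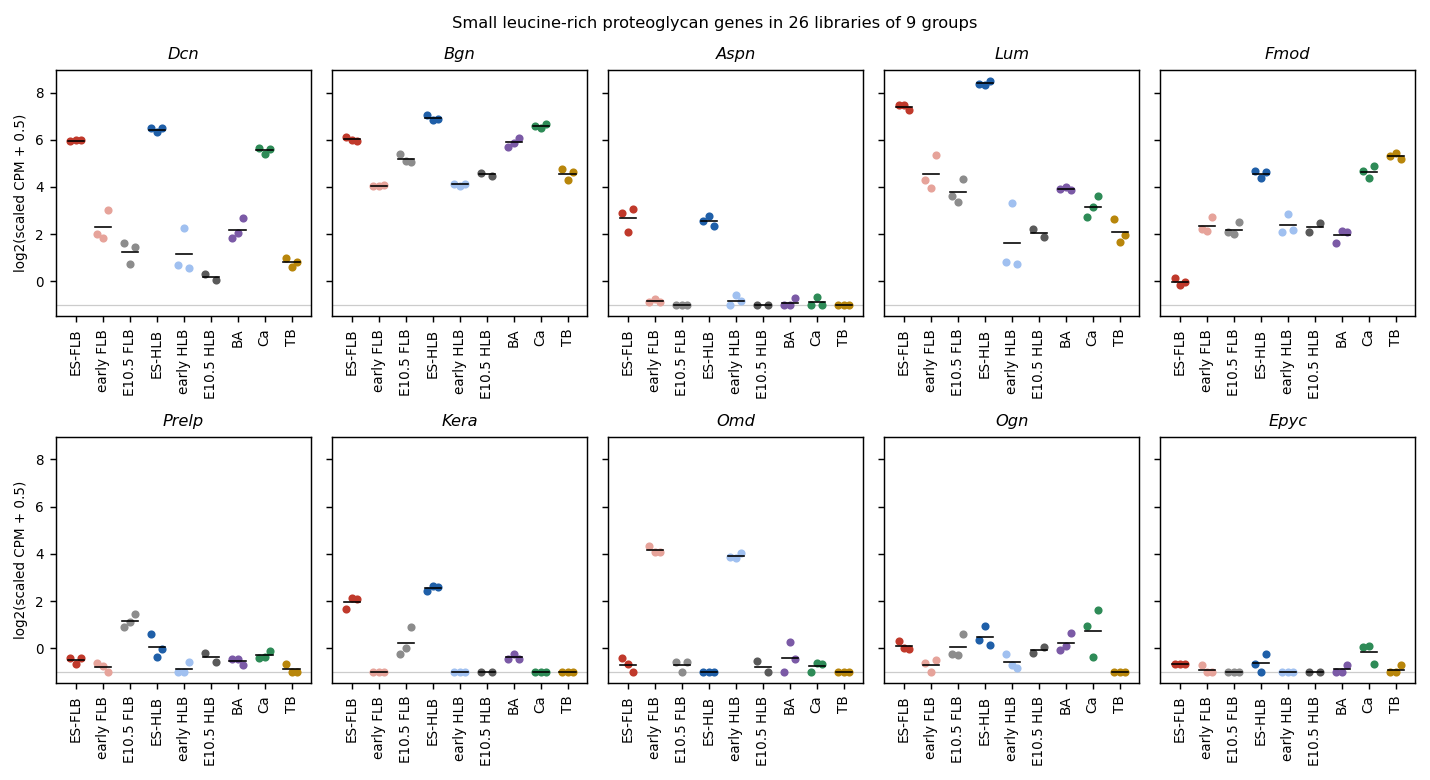
Level of each of the 10 SLRP genes on a log2(scaled CPM + 0.5) axis, with 1 point per library, grouped by tissue, and a black line at the mean of each group. The grey line marks 0 CPM. Aspn and Kera lie high in the 6 ES–LB libraries, Fmod lies low in ES–FLB and high in ES–HLB, Ca and TB, and Omd lies high in the 6 early limb bud libraries only.

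Most members stand in clusters on the genome (mm10, GRCm38). On chromosome 10, all on the plus strand, Dcn (chr10:97479500-97518163), Lum (chr10:97565501-97572703), Kera (chr10:97606962-97613688) and Epyc (chr10:97644068-97681908) follow each other with gaps of 47.3, 34.3 and 30.4 kb. On chromosome 13 the related gene Ecm2 is followed by Aspn (chr13:49544443-49567565), Omd (chr13:49582462-49592612) and Ogn (chr13:49608015-49624501) with gaps of 11.7, 14.9 and 15.4 kb, all on the plus strand. On chromosome 1 Prelp (chr1:133910304-133930102, minus strand) and Fmod (chr1:134037254-134048280, plus strand) are 107 kb apart, and Bgn stands alone on chromosome X (chrX:73483601-73495936, plus strand). No other protein-coding gene lies wholly inside these gaps. Over the 9 group means of log2(CPM + 0.5), Pearson's r was 0.93 between the neighbours Lum and Kera and 0.81 between Dcn and Lum, but also 0.91 between Lum on chromosome 10 and Aspn on chromosome 13, and 0.94 between Kera and Aspn. Aspn and its neighbour Omd gave r of −0.27, and Fmod gave −0.22 to 0.16 with Dcn, Bgn, Aspn, Lum, Kera and Omd. Members whose group means all stayed under 4 CPM (Prelp, Ogn and Epyc) were not compared. These values describe 9 points that share libraries and scaling.

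The 250 bases before the start of transcription are shown for 4 members whose levels the results turn on: Aspn and Kera, which lie apart on the genome and were high in the same 2 groups, Fmod, which parted the ES–LBs, and Bgn, which was measured in every group. The sequences are those of RefSeq on GRCm38.p6, which held an entry for 8 of the 10 members, and read 5′ to 3′ on the gene's strand. For Kera the start of transcription used lies downstream of the gene start given above, so that most of its window lies inside the gene. The other 3 windows end at the base before the gene start given above. Capitals mark 4 motifs searched on both strands: the TATA box TATAAA, the CCAAT box, the GC box GGGCGG and the AP-1 site TGANTCA.
Aspn (chr13:49544193-49544442): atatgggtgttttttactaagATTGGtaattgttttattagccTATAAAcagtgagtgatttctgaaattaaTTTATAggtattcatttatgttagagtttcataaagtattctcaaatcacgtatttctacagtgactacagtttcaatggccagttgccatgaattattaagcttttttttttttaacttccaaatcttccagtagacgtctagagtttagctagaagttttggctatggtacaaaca
Kera (chr10:97606955-97607204): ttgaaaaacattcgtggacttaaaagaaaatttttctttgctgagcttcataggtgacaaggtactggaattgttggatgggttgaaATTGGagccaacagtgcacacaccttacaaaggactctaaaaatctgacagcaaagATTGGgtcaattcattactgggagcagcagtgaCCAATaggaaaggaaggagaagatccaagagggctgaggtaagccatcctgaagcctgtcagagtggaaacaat
Fmod (chr1:134037004-134037253): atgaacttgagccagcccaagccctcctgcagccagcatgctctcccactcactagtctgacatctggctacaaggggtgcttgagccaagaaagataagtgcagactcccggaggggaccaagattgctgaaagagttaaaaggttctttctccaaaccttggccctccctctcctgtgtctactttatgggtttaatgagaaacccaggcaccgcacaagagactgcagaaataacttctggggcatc
Bgn (chrX:73483351-73483600): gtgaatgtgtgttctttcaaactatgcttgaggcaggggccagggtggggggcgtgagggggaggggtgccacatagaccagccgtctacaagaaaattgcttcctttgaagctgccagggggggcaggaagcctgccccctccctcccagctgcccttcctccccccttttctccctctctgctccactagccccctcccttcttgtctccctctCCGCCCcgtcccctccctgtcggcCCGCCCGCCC
Kera held 3 CCAAT boxes, 163, 107 and 74 bases before the start. Aspn held 1 CCAAT box and TATAAA at 2 places, none of them close to the start. Bgn held 3 GC boxes within the last 34 bases, the last pair overlapping each other, and Fmod none of the 4 motifs in this window. Of 32851 mouse promoters of the same length, 33.8% held CCAAT, 32.7% GGGCGG, 12.4% TATAAA and 6.75% TGANTCA. A match describes letters and not a bound site.

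ES–LBs were first compared with the limb buds of the embryo, to ask how close their SLRP expression is to that of the tissue they model. Against the early limb buds 6 of the 9 tested members were higher in ES–FLB (Dcn, Bgn, Aspn, Lum, Kera and Ogn) and 2 lower (Fmod and Omd), where 37.3% of all tested genes were higher and 39.4% lower. In ES–HLB 8 members were higher and Omd alone was lower than in early HLBs (36.7% and 38.4% of all genes). Against E10.5 FLBs 5 were higher and 2 lower in ES–FLB (34.0% and 34.7% of all genes). Against E10.5 HLBs 6 were higher in ES–HLB (34.6%) and no member was lower (33.8%), also at an unadjusted p below 0.05. In either direction 76.7%, 75.1%, 68.7% and 68.4% of all genes passed in these 4 comparisons, and in 80.4%, 77.8%, 71.1% and 77.0% of all genes the libraries did not overlap. The median log2 fold change of the members was 1.96, 2.80, 0.83 and 2.38 in these 4 comparisons, and that of all genes −0.013, −0.003, 0.000 and 0.019. Aspn, Kera, Prelp, Omd and Ogn passed the filter only through groups in which they are high, so these counts and medians describe the members and support no statement on the family. Both ES–LB groups are sorted cells of a cultured line, grown with added factors such as hydrocortisone. The limb buds are whole tissue of another strain, and these differences cannot be told apart.

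**Figure D3:**
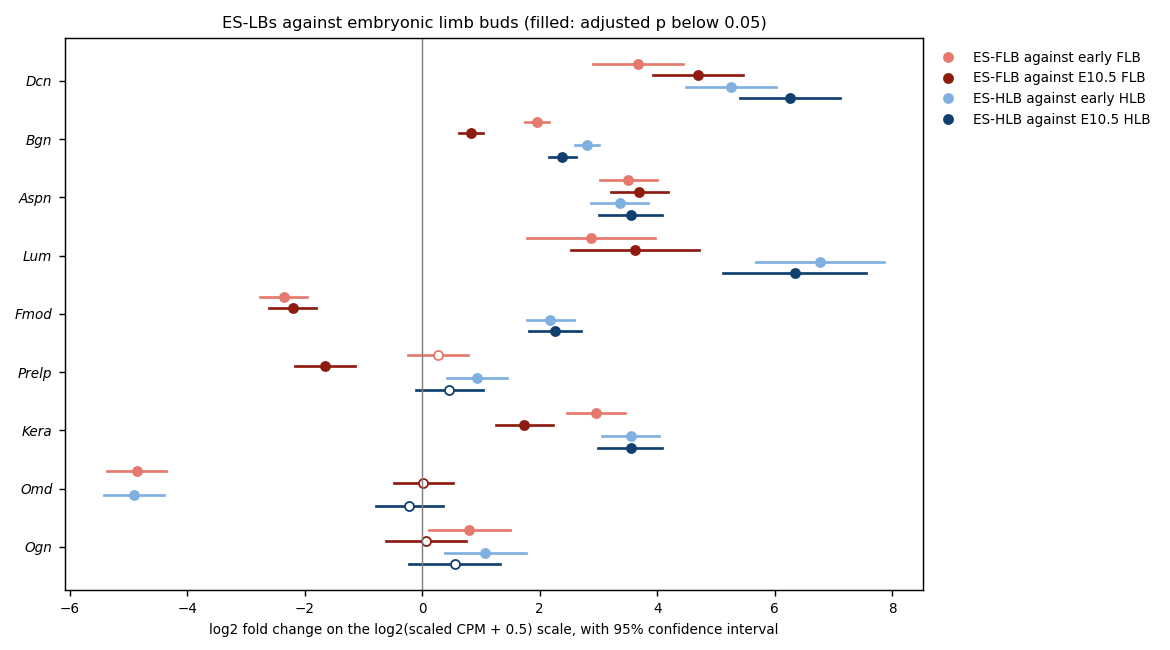
Log2 fold change of 9 SLRP genes in ES–LBs against embryonic limb buds of the same limb type, on the log2(scaled CPM + 0.5) scale, with 95% confidence intervals (Epyc was not tested). Filled points passed an adjusted p of 0.05. Dcn, Bgn, Aspn, Lum and Kera lie right of 0 in all 4 comparisons, Fmod on opposite sides for forelimb and hindlimb, and Omd far left of 0 (log2 −4.86 and −4.91) against the early limb buds alone.

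Dcn encodes decorin, which binds collagen and TGF-β. It was at 60.4, 62.2 and 62.4 CPM in ES–FLB and at 89.7, 79.0 and 89.5 in ES–HLB. Early FLBs held 3.54, 3.07 and 7.59 CPM, early HLBs 1.10, 4.26 and 1.00, E10.5 FLBs 2.54, 1.15 and 2.25, and E10.5 HLBs 0.723 and 0.527. No limb bud library of the embryo overlapped an ES–LB library. The log2 fold change of ES–FLB was 3.67 ± 0.36 (SE) against early FLBs (adjusted p = 2.13e-08, limma) and 4.70 ± 0.36 against E10.5 FLBs (adjusted p = 1.00e-09). For ES–HLB it was 5.26 ± 0.36 and 6.27 ± 0.41 (adjusted p = 9.94e-11 and 6.98e-11). In mean CPM the ratios to the early and the E10.5 stage were 13 and 31.1 in ES–FLB and 40.6 and 138 in ES–HLB. Without the 2 early libraries that stand apart it was 4.03 ± 0.21 and 5.80 ± 0.21 against the early groups.

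Bgn encodes biglycan, the closest relative of decorin, known from bone and tendon. It was at 68.8, 62.7 and 60.6 CPM in ES–FLB and 130, 113 and 117 in ES–HLB, against 15.9 to 16.4 in early FLBs and 16 to 17.1 in early HLBs. E10.5 FLBs held 41.2, 33.9 and 32.7 CPM and E10.5 HLBs 23.7 and 21.6. ES–FLB thus lay 3.98-fold above early FLBs but only 1.78-fold above E10.5 FLBs in mean CPM, with no overlap in either (log2 1.96 ± 0.10 and 0.83 ± 0.10, adjusted p = 1.93e-17 and 1.55e-08). ES–HLB lay 7.17-fold and 5.29-fold above its counterparts (log2 2.80 ± 0.10 and 2.38 ± 0.11, adjusted p = 6.36e-21 and 1.86e-17).

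Aspn encodes asporin, a decorin-like protein of developing tendon, ligament and cartilage that binds TGF-β. It was at 7.00, 3.76 and 7.98 CPM in ES–FLB and at 5.31, 6.35 and 4.51 in ES–HLB. None of the other 20 libraries was above 0.160 CPM, at or under about 3 reads, and in the E10.5 limb buds and TB every library was at 0. Against the floor of 3 reads ES–FLB was at least 12.0-fold above E10.5 FLBs and ES–HLB at least 9.94-fold above E10.5 HLBs. Aspn passed the filter through the ES–LB libraries alone. Its fitted log2 fold changes, 3.36 to 3.69 over the 4 comparisons, are therefore a description, and they are no bound, since they depend on the pseudocount.

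Lum was higher in the ES–LBs than in the limb buds in all 4 comparisons. Its protein, lumican, is a keratan sulfate carrier that keeps collagen fibrils thin and evenly spaced in cornea and skin. ES–FLB held 176, 178 and 152 CPM and ES–HLB 328, 317 and 357. In the embryo the early FLBs held 19.4, 14.8 and 39.9 CPM, the E10.5 FLBs 11.7, 9.71 and 19.7, the early HLBs 1.25, 9.42 and 1.17, and the E10.5 HLBs 4.16 and 3.2. Every ES–LB library was above every embryonic library. In mean CPM ES–FLB was 6.84-fold above early FLBs (log2 2.87 ± 0.52, adjusted p = 6.32e-05), and ES–HLB 84.7-fold above early HLBs (log2 6.77 ± 0.52, adjusted p = 9.27e-10). Against the E10.5 stage the ratios were 12.3 and 91.3 (log2 3.63 ± 0.52 and 6.34 ± 0.58, adjusted p = 5.96e-06 and 1.81e-08). The high libraries of the early groups are the ones that stand apart, and without them the log2 values against the early groups were 3.28 ± 0.29 and 7.61 ± 0.29.

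Kera encodes keratocan, best known as a keratan sulfate proteoglycan of the cornea. It was at 2.65, 3.89 and 3.75 CPM in ES–FLB and at 4.93, 5.64 and 5.46 in ES–HLB, and at 0 in all 6 early limb bud libraries and both E10.5 HLB libraries. E10.5 FLBs were the only limb buds with reads, at 0.339, 0.494 and 1.38 CPM. ES–FLB was at least 21.7-fold above the floor of early FLBs and ES–HLB at least 32.0-fold above that of early HLBs. Against E10.5 FLBs the ratio of ES–FLB was 4.64 (log2 1.74 ± 0.24). Kera passed the filter through the ES–LBs and 1 E10.5 FLB library, so these values are a description.

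Fmod was the member that parted the ES–LBs. Fibromodulin shares its collagen site with lumican and is abundant in tendon. ES–FLB held 0.603, 0.389 and 0.484 CPM, little more than 3 reads, and ES–HLB held 24.9, 20.0 and 24.1. The limb buds of the embryo lay between them, at 3.84 to 6.06 CPM in early FLBs, 3.79 to 6.65 in early HLBs, 3.46 to 5.19 in E10.5 FLBs and 3.80 and 5.10 in E10.5 HLBs. None of these libraries overlapped either ES–LB group. ES–FLB fell by 2.36 on the log2 scale against early FLBs and by 2.21 against E10.5 FLBs (SE 0.20 in both, adjusted p = 1.22e-12 and 1.43e-11). ES–HLB was higher by 2.18 ± 0.20 against early HLBs and by 2.26 ± 0.22 against E10.5 HLBs (adjusted p = 1.01e-11 and 1.08e-10).

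Prelp and Ogn were measured at low levels. Prelp passed the filter through the 3 E10.5 FLB libraries and 1 of ES–HLB, and Ogn through 5 libraries of 4 groups. Their fold changes and p-values are therefore a description. Every ES–FLB value of Prelp was under the level of 3 reads. Prelp, which encodes a heparin-binding SLRP without the usual sugar chains, was at 0.130 to 0.242 CPM in ES–FLB and at 1.36, 1.65 and 2.25 in E10.5 FLBs, a log2 fold change of −1.66 ± 0.25 (adjusted p = 6.34e-07). In ES–HLB it was at 1.01, 0.282 and 0.475 CPM and against early HLBs it was higher (log2 0.93 ± 0.25, adjusted p = 0.00123). Against E10.5 HLBs it gave log2 0.46 (adjusted p = 0.144), and passed without replicate 2 of ES–HLB (0.0472). Ogn encodes osteoglycin, also called mimecan, a protein of bone and connective tissue. It was at 0.484 to 0.724 CPM in ES–FLB and at 0.594 to 1.41 in ES–HLB, higher than in the early limb buds, where it was at most 0.349 (adjusted p = 0.0327 and 0.00534), while the adjusted p against the E10.5 limb buds was 0.875 and 0.195. The first of these calls was lost without replicate 1 or 2 of ES–FLB or replicate 2 of the early FLBs (adjusted p = 0.0991, 0.0525 and 0.125). Epyc, the gene of epiphycan of growth plate cartilage, was at most 0.560 CPM in any library, in Ca, and was not tested.

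The forelimb and hindlimb groups were compared next, since the culture was steered to 1 limb type by retinoic acid or its antagonist. Bgn and Fmod were higher in ES–HLB than in ES–FLB among the 9 members (10.8% of all genes were higher). No member was lower (8.81% of all genes), also at an unadjusted p below 0.05. In either direction 19.6% of all genes passed, and in 35.6% the libraries did not overlap. For Bgn the ratio of mean CPM was 1.87 (log2 0.90 ± 0.10, adjusted p = 4.83e-08) and for Fmod 46.8 (log2 4.57 ± 0.20, adjusted p = 2.23e-17). Lum was 1.98-fold and Dcn 1.40-fold higher in mean CPM with no overlap between the libraries, and neither passed the test in the fit of all groups (log2 0.98 ± 0.52, adjusted p = 0.215, and 0.47 ± 0.36, adjusted p = 0.429). That fit takes the spread of each gene from all 9 groups. When only the 6 ES–LB libraries were fitted, both passed (SE 0.06 in both, adjusted p = 2.03e-11 and 3.57e-07), as did Kera (log2 0.59, adjusted p = 0.0204). Prelp (log2 0.58, adjusted p = 0.105) passed without replicate 2 of ES–HLB (adjusted p = 0.0442). Aspn differed by log2 −0.15, with a 95% interval of −0.63 to 0.34.

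In the embryo the limb types were compared at both stages. By the study's figure legend the early HLBs are of a later stage than the early FLBs. Limb type and stage therefore cannot be told apart in the early groups. Early HLBs held less Lum than early FLBs (log2 −2.91 ± 0.52, adjusted p = 0.000504) and less Dcn (−1.12 ± 0.36, adjusted p = 0.0382). These are 2 of 9 members, where 1516 of the 14439 genes were lower. No member was higher (8.30% of all genes), also at an unadjusted p below 0.05. In either direction 18.8% of all genes passed, and in 37.2% the libraries did not overlap. The Dcn libraries of both groups overlapped and those of Lum did not. Replicate 3 of the early FLBs and replicate 2 of the early HLBs were the highest of their group in both genes. Without both, Lum gave −3.35 ± 0.32 and Dcn −1.29 ± 0.23 (adjusted p = 1.40e-06 and 0.000159). Dcn lost the call when replicate 1 or 3 of either group was left out alone, with adjusted p of 0.0523 to 0.197, and when only these 6 libraries were fitted neither gene passed (adjusted p = 0.108 and 0.249). At E10.5 the HLBs were lower in 4 members, Bgn, Lum, Prelp and Kera (10.4% of all genes). They were higher in none (10.7% of all genes), also at an unadjusted p below 0.05. In either direction 21.1% passed, and in 45.5% the libraries did not overlap. The log2 fold changes were −0.65 ± 0.11, −1.72 ± 0.58, −1.54 ± 0.28 and −1.22 ± 0.27, with adjusted p of 0.000117, 0.0432, 0.000168 and 0.00132. Among the limb buds Prelp and Kera reached 1 CPM in E10.5 FLB libraries alone. Their values are therefore a description, and the count of 4 supports nothing. Lum lost its call without replicate 1 or 3 of the E10.5 FLBs (adjusted p = 0.0653 and 0.144) and without either of the E10.5 HLB libraries (0.126 and 0.186). In Dcn the libraries did not overlap either, with log2 −1.10 ± 0.41 and an adjusted p of 0.0638, which was 0.0341 without replicate 2 of the E10.5 FLBs. Fmod was level between the limb types, with intervals of −0.37 to 0.42 in the early groups and −0.34 to 0.55 at E10.5.

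The difference between the limb types was itself tested between ES–LBs and early limb buds. In the early groups limb type and the stage of the figure legend cannot be told apart, also in this test. It was more toward the hindlimb in ES–LBs for Fmod (difference of log2 fold changes 4.54 ± 0.28, adjusted p = 1.36e-13), Lum (3.89 ± 0.73, adjusted p = 0.000859), Dcn (1.59 ± 0.52, adjusted p = 0.0355) and Bgn (0.84 ± 0.14, adjusted p = 4.79e-05). These are 4 of 9 members, where 11.3% of all genes moved that way and 8.55% the other (19.8% in all), and no member moved the other way, also at an unadjusted p below 0.05. The limb type difference of Lum within the ES–LBs did not itself pass in this fit, as given above (95% interval −0.10 to 2.07). Dcn lost this call without any 1 of the 6 ES–LB libraries, without replicate 3 of the early FLBs and without replicate 1 or 3 of the early HLBs, with adjusted p of 0.0511 to 0.10 and values of 1.23 to 1.65. With only these groups in the fit its adjusted p was 0.124. Without both early libraries that stand apart its value was 1.77 ± 0.30 (adjusted p = 6.29e-05).

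**Figure D4:**
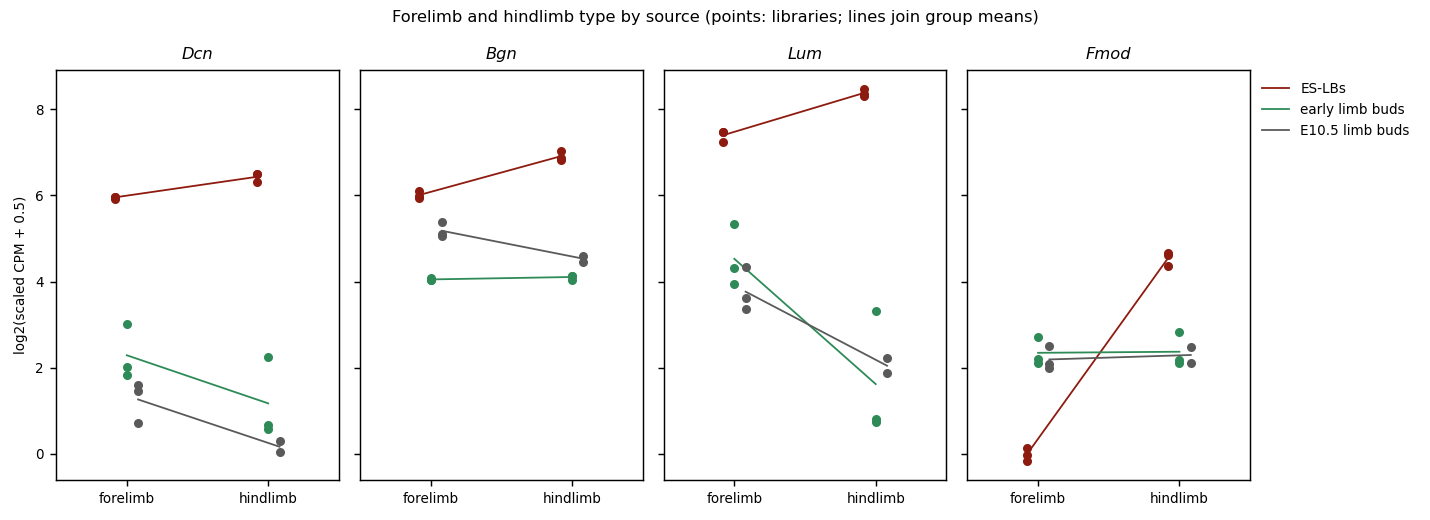
Level of Dcn, Bgn, Lum and Fmod on a log2(scaled CPM + 0.5) axis in forelimb and hindlimb groups of ES–LBs, early limb buds and E10.5 limb buds. Points are libraries and lines join group means, which are higher in the hindlimb of ES–LBs for all 4 genes, most for Fmod (log2 4.57; Dcn and Lum did not pass the test), and lower for Lum in both embryonic stages (−2.91 and −1.72).

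Between the early stage and E10.5, Bgn was higher in FLBs by 1.13 ± 0.10 on the log2 scale (adjusted p = 4.04e-11) and in HLBs by 0.43 ± 0.11 (adjusted p = 0.00408). Prelp rose from at most 0.156 CPM to the 1.36 to 2.25 CPM given above in FLBs, and Kera from 0 (log2 1.93 ± 0.25 and 1.22 ± 0.24, adjusted p = 5.54e-08 and 5.15e-05). Dcn fell by 1.03 ± 0.36 in FLBs (adjusted p = 0.0213), a call that was lost without replicate 3 of the early FLBs (adjusted p = 0.132) or replicate 2 of the E10.5 FLBs (0.111), and that held without both early libraries that stand apart (log2 −0.66, adjusted p = 0.00902). In HLBs Dcn gave log2 −1.01 ± 0.41 (adjusted p = 0.0706) and passed without replicate 1 or 3 of the early HLBs (adjusted p = 0.0373 and 0.0325). Ogn in FLBs (log2 0.73, adjusted p = 0.0617) passed without replicate 2 of the E10.5 FLBs (0.0484). With Omd, 3 of 9 members were higher and 2 lower in FLBs (25.8% and 33.7% of all genes) and 1 higher and 1 lower in HLBs (11.1% and 19.4%). In either direction 59.5% and 30.5% of all genes passed, and in 65.8% and 53.5% the libraries did not overlap. In HLBs the call of Bgn was lost without replicate 1 of the E10.5 HLBs (adjusted p = 0.0713), and Lum, at log2 0.43 ± 0.58, passed without replicate 2 of the early HLBs (1.27, adjusted p = 0.0277). The change was lower in HLBs than in FLBs for Bgn (difference −0.70 ± 0.15, adjusted p = 0.00106), Prelp (−1.46 ± 0.37, adjusted p = 0.00504) and Kera (−1.22 ± 0.36, adjusted p = 0.0139), 3 members where 9.64% of all genes moved that way. Prelp and Kera reached 1 CPM among the limb buds in E10.5 FLB libraries alone and passed the filter through these or the ES–LBs, so that their stage values are a description and this count supports nothing. The Prelp difference lost its call on the log2(CPM + 0.1) scale (−2.03, adjusted p = 0.0751). No member moved the other way (11.2% of all genes, and 20.9% in either direction), also at an unadjusted p below 0.05. For Lum the difference was 1.19 ± 0.78 (adjusted p = 0.310), which became 2.04 without replicate 2 of the early HLBs (adjusted p = 0.00940). Kera lost this call without replicate 3 of the E10.5 FLBs, its highest library (adjusted p = 0.0603). Early and E10.5 libraries also differ in depth and in the share of low values that are whole reads within 0.01 read (93.5 to 93.9% against 98.5 to 99.1%), and stage and this difference cannot be told apart. By the study's figure legend the early HLBs are of a later stage than the early FLBs, so that their step to E10.5 is shorter. Limb type and the length of this step cannot be told apart in the stage change.

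Of the other tissues of the E10.5 embryo, the heart held most Dcn and the tail bud most Fmod. In Ca the Dcn level was 49.3, 41.6 and 48.4 CPM, below both ES–LB groups without overlap and 35.6-fold above the mean of the E10.5 limb buds (log2 4.83 ± 0.33, adjusted p = 5.97e-11). Bgn in Ca was at 94.0, 89.0 and 101 CPM (log2 1.72 ± 0.09, adjusted p = 3.32e-17) and Fmod at 25.3, 20.4 and 28.9 CPM (log2 2.41 ± 0.18, adjusted p = 5.30e-14), the latter overlapping ES–HLB. With Ogn, 4 members were higher in Ca and 2, Prelp and Kera, lower (38.1% and 38.5% of all genes, 76.7% in either direction, with no overlap in 66.1%). Prelp and Kera passed the filter through E10.5 FLB and ES–LB libraries alone, and Ogn in part through Ca. Their calls are a description. Ogn was at 1.43, 0.280 and 2.60 CPM in Ca and overlapped the limb buds (adjusted p = 0.0227), and the call was lost without replicate 1 or 3 of Ca or replicate 1 of the E10.5 HLBs (adjusted p = 0.0914, 0.362 and 0.0642). The epicardial and endocardial genes summed to 395 to 478 CPM in Ca.

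In TB, Fmod stood at 39.5, 42.6 and 35.6 CPM, above every other library of the series and 9.15-fold above the E10.5 limb buds in mean CPM (log2 3.07 ± 0.18, adjusted p = 1.05e-15). It was the only member higher there, and Bgn, Prelp, Kera and Ogn were lower (23.0% and 22.8% of all genes, 45.8% in either direction, with no overlap in 36.9%). Of these 4, Bgn differed by log2 −0.30 ± 0.09 and lost its call without replicate 2 of TB (adjusted p = 0.172), and Kera and Ogn were at 0 in all TB libraries. Kera also lost its call without any 1 library of TB or replicate 3 of the E10.5 FLBs (adjusted p = 0.0522 to 0.0634). Prelp and Kera passed the filter through E10.5 FLB and ES–LB libraries alone, and Ogn through no TB library. These calls, and that of Prelp in BA below, are a description. In BA, Dcn (3.03, 3.60 and 6.00 CPM) and Bgn (51.9, 58.5 and 66.4 CPM) were higher than in the E10.5 limb buds and Prelp was lower (16.9% and 15.6% of all genes, 32.5% in either direction, with no overlap in 23.3%), with log2 of 1.47 ± 0.33, 1.03 ± 0.09 and −0.92 ± 0.22 and adjusted p of 0.00192, 1.16e-10 and 0.00187. Lum in BA was steady at 14.7, 15.3 and 14.1 CPM and overlapped the E10.5 FLBs (log2 1.02 ± 0.47, adjusted p = 0.105). With only the E10.5 groups fitted, Lum passed in BA (adjusted p = 8.69e-05) and in TB (log2 −0.82, adjusted p = 0.00725).

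Omd encodes osteomodulin, a protein of mineralised tissue, and its values in the early limb buds are in doubt. It was at 19.5, 16.5 and 16.4 CPM in early FLBs and at 14.2, 13.5 and 16.1 in early HLBs, and at most 0.697 CPM in the other 20 libraries. All calls of Omd in the comparisons above are those with the early groups (log2 −4.91 to −4.69). Omd lies inside Cenpp (chr13:49464023-49652785), a kinetochore gene of the other strand, and 0 of its exons touch an exon of Cenpp in GENCODE. Cenpp was at 20.1 to 22.9 CPM in the early limb buds and 16.8 to 21.9 in the E10.5 limb buds. Aspn, Ogn and Ecm2, which lie inside Cenpp on the same strand as Omd, were at most 0.349 CPM in the 6 early libraries. Omd is 1 of 11 genes at 5 CPM or more in all 6 early libraries and under 1 CPM in the other 20. Of these, 9 had a position and all 9 overlap a gene of the other strand, as do 44.4% of the 14278 tested genes with a position. The libraries were made with a strand-marking kit and the strand setting of the counting is not given in the sources used here, so that without strand the reads of Omd and of the other strand cannot be told apart. A part of the other strand in the early Omd values was not tested.

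**Figure D5:**
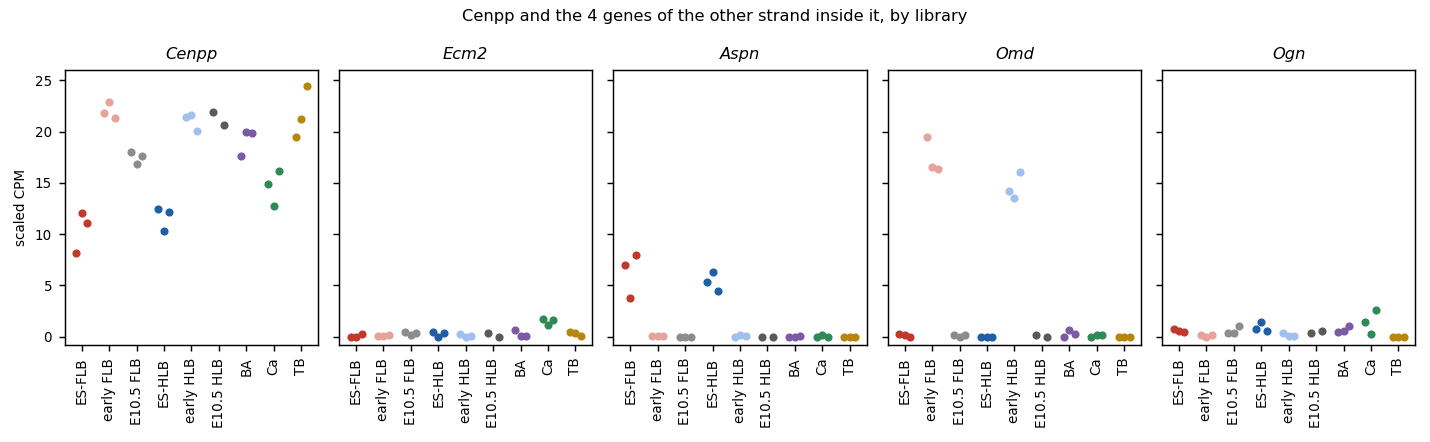
Scaled CPM of Cenpp and of the 4 genes of the other strand that lie inside it, with 1 point per library, by group. Omd is at 13.5 to 19.5 CPM in the 6 early limb bud libraries and under 1 CPM in the other 20, Cenpp shows no such step, and Aspn is high in the ES–LBs alone.

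The other 8 SLRP genes were mostly low, and 4 of them (Ecm2, Chadl, Tsku and Podn) passed the filter. Tsku encodes tsukushi, which binds BMP and other growth factors, and was at 18.1 to 33.7 CPM in all 26 libraries. Podn, the gene of podocan, was at 1.81, 1.43 and 1.33 CPM in ES–FLB and 0.759, 1.83 and 0.950 in ES–HLB, against at most 0.256 in the early and 0.519 in the E10.5 limb buds. Podn and Tsku, 2 of these 4, were higher in each ES–LB group against its early limb bud, where 37.3% (ES–FLB) and 36.7% (ES–HLB) of all genes were higher. The log2 fold change of Podn was 1.76 ± 0.28 and 1.35 ± 0.28 (adjusted p = 1.35e-06 and 7.88e-05) and that of Tsku 0.26 ± 0.10 and 0.24 ± 0.10 (adjusted p = 0.0160 and 0.0271). Ecm2 was highest in Ca, at 1.70, 1.12 and 1.64 CPM, and passed the filter through these 3 libraries alone, with at most 0.509 CPM in the E10.5 limb buds. Chadl, the gene of a chondroadherin-like protein, was at 1.36, 0.987 and 1.21 CPM in E10.5 FLBs, the 1 group whose mean reached 1 CPM, and at 0.362, 0.130 and 0.363 in ES–FLB. Optc, Chad, Nyx and Podnl1 did not reach 1 CPM in 3 libraries.

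SLRPs act on collagen fibrils, and lists of collagens, assembly factors, chain enzymes and binding partners are described here by their counts. The counts stand beside the shares of all tested genes, and nothing particular to a list is read from them. Against the early limb buds 9 of the 11 fibril collagen genes were higher and 1 was lower in ES–FLB, where 37.3% of all genes were higher and 39.4% lower, and all 11 were higher in ES–HLB (36.7% and 38.4% of all genes), with a median log2 fold change of 1.83 and 2.04. Col3a1 was at 3864 ± 137 CPM in ES–FLB and 508 ± 78.9 in early FLBs (log2 2.94 ± 0.10, adjusted p = 5.40e-15), and Col1a2 at 1915 ± 85.1 in ES–HLB and 147 ± 16.8 in early HLBs (log2 3.70 ± 0.14, adjusted p = 2.58e-14). Of 25 tested genes of fibril assembly, 17 were higher and 4 lower in ES–FLB and 18 and 4 in ES–HLB (median 1.48 and 1.31). The chains of collagen VI, a beaded filament that binds biglycan and decorin, led this list. Col6a3 was at 265 ± 9.47 CPM in ES–FLB against 10.3 ± 2.57, and at 378 ± 7.45 in ES–HLB against 3.14 ± 0.964 (log2 4.65 ± 0.21 and 6.74 ± 0.21, adjusted p = 8.58e-14 and 2.76e-16). Against the E10.5 limb buds 9 and 10 of the 11 collagens were higher in ES–FLB and ES–HLB, with 1 lower in ES–FLB, and in both 19 of 25 assembly genes were higher and 2 lower, where 34.0% and 34.6% of all genes were higher and 34.7% and 33.8% lower. In TB 5 collagens were higher and 6 lower than in the E10.5 limb buds (median −0.62; 23.0% and 22.8% of all genes), with Col1a2 at 119 ± 18.2 CPM against 522 ± 146 (log2 −2.09 ± 0.13, adjusted p = 1.36e-10). In BA 8 collagens were higher, as were 9 assembly genes with 1 lower (16.9% and 15.6% of all genes). In Ca 5 collagens were higher and 4 lower, and 16 and 4 assembly genes (38.1% and 38.5% of all genes).

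The sugar chains are built on the core by enzymes of several steps, whose counts stand beside the same shares of all genes (37.3% higher and 39.4% lower in ES–FLB against early FLBs, 36.7% and 38.4% in ES–HLB against early HLBs). Of the 7 genes for the linker that joins chain and core, 1 was higher and 2 lower in ES–FLB against early FLBs, and 2 and 2 in ES–HLB against early HLBs. Among 15 tested genes of chondroitin and dermatan sulfate, the chains of decorin and biglycan, 9 were higher and 5 lower in ES–FLB (median log2 0.47) and 4 and 4 in ES–HLB (median 0.00). Dsel, related to the epimerase that makes dermatan sulfate, was at 44.4 ± 2.66 CPM in ES–FLB and 14.2 ± 1.10 in early FLBs (log2 1.61 ± 0.10, adjusted p = 3.65e-16). For keratan sulfate, the chain of lumican, keratocan and fibromodulin, 1 of 8 tested genes was higher and 4 were lower in ES–FLB, and 2 and 3 in ES–HLB (median −0.46 and −0.11). Chst2, a sulfotransferase, was at 49.3 ± 2.43 CPM in ES–FLB and 76.9 ± 4.80 in early FLBs (log2 −0.63 ± 0.11, adjusted p = 3.70e-06). In TB, where Fmod led, 5 of the 8 keratan sulfate genes were higher than in the E10.5 limb buds (23.0% of all genes), with Chst2 at 42.3 ± 1.82 CPM against 27.9 ± 3.53 (log2 0.60 ± 0.09, adjusted p = 5.97e-06).

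Among 16 receptors and ligands that SLRPs bind, 9 were higher and 5 lower in ES–FLB against early FLBs, and 11 and 5 in ES–HLB against early HLBs (median log2 0.44 and 0.73), beside the same shares of all genes as for the enzymes. Tgfb2, a ligand held by decorin and biglycan, was at 273 ± 6.67 CPM in ES–FLB against 64.7 ± 2.07, and at 116 ± 5.50 in ES–HLB against 24.1 ± 5.15 (log2 2.07 ± 0.14 and 2.27 ± 0.14, adjusted p = 1.78e-11 and 4.66e-12). Kdr, a VEGF receptor that decorin binds, is itself among the endothelial markers summed above. It was at 8.0 ± 0.929 CPM in ES–FLB against 113 ± 11.8 in early FLBs, and at 12.7 ± 2.14 in ES–HLB against 103 ± 11.7 in early HLBs. Met, the HGF receptor that decorin also binds, was at 9.08 ± 2.15 CPM in ES–HLB and 29.6 ± 0.588 in early HLBs (log2 −1.67 ± 0.12, adjusted p = 1.71e-13). In Ca 12 of the 16 were higher and 3 lower than in the E10.5 limb buds (38.1% and 38.5% of all genes), with Erbb4 at 32.8 ± 1.43 CPM against 0.0288 ± 0.0774.

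For each member with a group mean of 4 CPM or more, the genes with the most similar profile were listed by Pearson's r over the 9 group means of log2(CPM + 0.5). These values describe 9 points only. Lum was nearest to Tmem45a (0.993), Tet1 (0.982) and Dennd4c (0.976). Dcn was nearest to Ndel1 (0.984), Itpr2 (0.981) and Kidins220 (0.980), followed by Fosl2 (0.978) and the fibrillin gene Fbn1 (0.977). For Bgn the elastin gene Eln (0.976) came first, followed by Trafd1 (0.974) and Phka2 (0.970). Eln was at 14.7 CPM in ES–FLB, 24.4 in ES–HLB and 29.0 in Ca, and at 1.21 and 1.43 in the early limb buds. Aspn was nearest to Gm6548 (0.997) and Zmat3 (0.995), and Kera to Smurf1 (0.984) and Crtc1 (0.983). Fmod had no neighbour above the 0.925 of Tpd52, followed by Spata13 (0.904) and Plce1 (0.878). Omd was nearest to C230091D08Rik (0.996), 9530082P21Rik (0.992) and Msx1as (0.991). Msx1as, an antisense RNA, was at 15.4 and 16.8 CPM in the early FLBs and HLBs and under 1 CPM in the other 7 group means.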

How the data were processed

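RNA from 27 mouse libraries (9 groups of 3) was made into stranded mRNA libraries, read single-end, aligned to mm10 with HISAT2 2.0.4 and counted per RefSeq gene with Cuffdiff. The processing notes also name FastQC 0.11.5 and Cufflinks 2.1.1. The strand setting of the counting is not given in the sources used here. The authors deposited 1 table of CPM (reads scaled to a common library total), whose columns sum to 1000000, so that no count model was applied. Depth, 5543747 to 22142313 reads per library, was recovered from the steps between low values.

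CPM were scaled with trimmed-mean factors (trims of 30% and 5%, factors 0.883 to 1.08). A gene at 1 CPM or more in 3 libraries entered the test, by limma 3.58.1 (R 4.3.3; trend and robust) with values on the log2(CPM + 0.5) scale, in 1 fit of 9 groups and 26 libraries. Adjusted p are Benjamini-Hochberg values over 14439 genes with a threshold of 0.05, and are two-sided. Fold changes on this scale understate the change of low genes. BA, Ca and TB were compared with the mean of the E10.5 FLBs and HLBs. CPM per kb used the union of exons. In simulated data for ES–FLB against early FLB, 100 of 100 genes changed by log2 1 were called, with 11 false calls among 13038 genes tested. The changed genes were drawn from well expressed ones, all genes had the same small spread, and the compared groups alone were fitted. These rates therefore do not carry over to low members or to the fit of 9 groups.

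The members and lists were chosen with earlier results of these data known. Named from each list were at most 3 called genes per comparison, with the largest change, where groups did not overlap and the higher one had 16 CPM or more; for likeness, the 5 genes of highest r with 16 CPM or more. Alternatives covered scaling, filters, pseudocounts, the fit, a replicate block, the threshold and each library left out. Leaving out both early libraries that stand apart was chosen after seeing the data.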

Additional observations from a re-analysis of the deposited data

Results flagged for a closer look

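The difference between hindlimb and forelimb was not the same in ES–LBs and early limb buds for 4 members, by the limma test of the difference itself. It lay more toward the hindlimb in ES–LBs, by 4.54 on the log2 scale for Fmod, 3.89 for Lum, 1.59 for Dcn and 0.84 for Bgn. Without both early libraries that stand apart the values were 4.59, 4.34, 1.77 and 0.80, and all 4 passed. The call of Dcn was lost without any single ES–LB library, and with only these groups in the fit. For Lum and Dcn the sign differed. Hindlimb against forelimb gave log2 −2.91 and −1.12 in early limb buds, and 0.98 and 0.47 in ES–LBs. In ES–LBs neither passed in the fit of all groups, and both passed when only the ES–LBs were fitted. By the figure legend the early HLBs are also of a later stage than the early FLBs. Limb type and stage cannot be told apart there.

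The change from the early stage to E10.5 differed between HLBs and FLBs for 3 members. It was lower in HLBs, by log2 −1.46 for Prelp, −1.22 for Kera and −0.70 for Bgn. The study's figure legend gives HLBs a shorter step to E10.5, and limb type and the length of this step cannot be told apart. Kera and Prelp were at or under about 3 reads in every limb bud group but the E10.5 FLBs, and passed the filter on low values through these libraries or the ES–LBs, so that their values are a description. The Prelp value was −2.03 on the log2(CPM + 0.1) scale, where it was not called (adjusted p = 0.0751, limma).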

How the results depend on the processing

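Counts are of members called among 9 in each of 14 comparisons. At an adjusted p of 0.001 the count was 1 for E10.5 HLBs against early HLBs (2 at 0.05), 1 for early HLBs against early FLBs (2), 2 for E10.5 HLBs against E10.5 FLBs (4), 1 for BA (3), 3 for Ca (6), 2 for TB (5), and 0 for the stage difference between limb types (3), where 3 members had an unadjusted p below 0.05 in limma. At 0.001 Ogn also lost its call in ES–FLB against early FLBs, and Prelp and Ogn lost theirs in ES–HLB against early HLBs. Dcn lost its call in E10.5 FLBs against early FLBs and in the limb type difference between ES–LBs and early limb buds. For ES–HLB against ES–FLB the count of 2 became 4 without the filter and in limma without trend and robust, and 5 with only the groups compared. For early HLBs against early FLBs it became 1 with the truncated library kept and 0 with only the groups compared, where limma gave 2 members (Lum and Omd) an unadjusted p below 0.05. TB fell to 3 with a filter of 4 CPM. With 1 library left out, the counts ran from 1 to 2 for early HLBs against early FLBs, from 1 to 3 for E10.5 HLBs against early HLBs and from 3 to 5 for TB. The cause of these changes was not tested.

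Same-numbered replicates did not deviate together (r of −0.087 to 0.101). With the replicate block the count for early HLBs against early FLBs became 1 and that for E10.5 HLBs against E10.5 FLBs 3. In the other comparisons the block left the counts as they were.

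Over the single members, other settings left 1201 results on their side of the threshold, with 18 gained and 33 lost, and leaving out 1 library left 841, with 9 gained and 32 lost. No called result changed sign. Results that were not called changed sign 20 times under other settings and 55 times with a library left out, at log2 values of at most 0.43. Per kb of the longest transcript Dcn and Bgn gave 18.3 and 45.0 CPM in ES–HLB, where the union of exons gave 14.7 and 19.7. Depth limits Prelp, Ogn, Epyc and Kera, whose levels in most groups are near 3 reads.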
